A study of Homo sapiens with 10 samples.

Results

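The NRF2 antioxidant genes described here are 9 genes, chosen by name with earlier results of these data known, out of 22432 genes measured. They are NFE2L2, which encodes the transcription factor NRF2, its repressor KEAP1, and the target genes NQO1, HMOX1, GCLC, GCLM, TXNRD1, SRXN1 and ME1. Each was read from the brightest probe set naming it alone, and all 9 had one. RNA came from 786-O, a human clear-cell renal carcinoma line without functional VHL, grown after lentiviral delivery of a short hairpin RNA and puromycin selection at 2 ug/ml. The knockdown groups were ZHX2 hairpin 44, ZHX2 hairpin 45 and p65 shRNA, and the controls were a scrambled hairpin (Scr) for ZHX2 and a control shRNA (Ctrl) for p65. Each of the 5 groups had 2 arrays. ZHX2 is a zinc-finger and homeobox transcription factor, and p65, the product of RELA, is a subunit of NF-kB. The labels do not say whether the 2 arrays of a group came from separate cultures, or whether clones or pools were used, so every p-value reflects array-to-array spread alone, which may be technical.

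NRF2 is a basic leucine zipper factor that pairs with small MAF proteins and binds the antioxidant response element. In unstressed cells KEAP1 holds NRF2 for the CUL3 ubiquitin ligase and it is degraded. Electrophiles and oxidants modify cysteines of KEAP1, NRF2 then escapes degradation, and genes for glutathione and thioredoxin metabolism, quinone reduction, haem breakdown and NADPH supply are transcribed. Because this control acts on the protein, NFE2L2 mRNA and NRF2 activity need not move together, and no protein was measured here.

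The antioxidant response element core, written TGACNNNGC with N as any base, was looked for on both strands in the 250 bases before each annotated start in the RefSeq promoter table (build GRCh38.p14). Of the 9 genes, 8 had 11 windows there, and HMOX1 is named only. The letters stood in 5 of the 11 windows, belonging to 4 genes, with 6 matches in all. Over the table, 3830 of 35116 windows held them (10.9%). The 6 stretches are given so that the core and its flanks can be compared between the genes with a match. Of these, GCLM and TXNRD1 were called after ZHX2 knockdown, and KEAP1 and ME1 were not. Each is printed 5′ to 3′ along the strand on which the core reads TGACNNNGC, with the core in capitals.
GCLM, chr1:93909446-93909474, plus strand: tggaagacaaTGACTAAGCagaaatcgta
TXNRD1, first start, chr12:104215670-104215698, plus strand: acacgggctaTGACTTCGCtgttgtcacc
TXNRD1, second start, chr12:104286920-104286948, minus strand: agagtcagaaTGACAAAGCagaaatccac
KEAP1, second start, chr19:10502784-10502812, plus strand: caggtcaccaTGACTAAGCagagccgggc
KEAP1, second start, chr19:10502807-10502835, minus strand: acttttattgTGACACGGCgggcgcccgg
ME1, chr6:83431170-83431198, minus strand: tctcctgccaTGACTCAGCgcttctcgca

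In GCLM the core lay 34 to 26 bases before the start, in ME1 137 to 129 bases before it, and at the TXNRD1 starts 99 to 91 and 102 to 94 bases before. The ME1 core overlaps the AP-1 letters TGACTCA, which stood in 4.20% of all windows. NQO1 and SRXN1, which were also called, and GCLC and NFE2L2, which were not, had no match in these windows. Bases outside the windows were not searched, so a gene without a match here may still have an element further away. A match is a description of letters and not of binding. The GCLM window is shown whole, along the direction of the gene (chr1:93909431-93909680, minus strand), with the core in capitals as its reverse complement, because GCLM had the smallest p of the 9 genes after ZHX2 knockdown.
GCLM: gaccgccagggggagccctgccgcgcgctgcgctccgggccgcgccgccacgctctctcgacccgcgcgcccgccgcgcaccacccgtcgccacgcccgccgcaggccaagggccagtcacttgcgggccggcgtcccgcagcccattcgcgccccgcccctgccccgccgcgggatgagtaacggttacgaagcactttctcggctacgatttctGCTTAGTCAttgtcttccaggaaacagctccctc

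Signals are log2 values after RMA, and array medians ran from 6.15 to 6.22 in the ZHX2 table and from 1.87 to 1.89 in the p65 table. The tables come from different platforms, so no level was set against the other table. ZHX2 changed by -1.14 with hairpin 44 (SE 0.0862) and by -1.53 with hairpin 45 (SE 0.0862), with limma adjusted p of 0.00528 and 0.000926. RELA differed by -2.50 with p65 shRNA (SE 0.178, limma adjusted p = 0.0733), and passed when the variance moderation followed signal intensity (adjusted p = 0.00132). All 9 measured markers of renal carcinoma lines lay above the median gene in the ZHX2 table and 8 of 9 in the p65 table, and 0 of 4 endothelial markers did in either table. Of the leukocyte markers 1 of 5 did in both tables, and of the fibroblast markers 1 of 4 in the ZHX2 table and 2 of 4 in the p65 table. RELA rose by 0.44 with both ZHX2 hairpins (SE 0.0689, limma adjusted p = 0.0112, and 0.0554 without Scr replicate 2), and ZHX2 differed by -0.09 with p65 shRNA (limma adjusted p = 0.861). The mean signal of 4 fibroblast markers ran from 5.46 to 5.50 with hairpin 44 and from 5.36 to 5.50 with hairpin 45, against 5.78 to 5.79 with Scr. LUM, at -0.95, was the only one of the 4 called over both hairpins (limma adjusted p = 0.00316), beside -0.34 for COL1A1, -0.15 for DCN and 0.11 for PDGFRB. That of 5 leukocyte markers ran from 6.04 to 6.09 with hairpin 44 and from 5.997 to 6.01 with hairpin 45, against 6.08 to 6.21 with Scr. CD68, at -0.46, was the only one of the 5 called (limma adjusted p = 0.00933), and PTPRC and CD14 had differences above 0. Among the renal carcinoma markers KRT18 rose by 0.62 (limma adjusted p = 0.0174) and PAX8 and PAX2 fell, with differences of -0.38 (0.0117) and -0.36 (0.0341), and the list's mean ran from 9.96 to 9.98 with hairpin 44 and from 9.92 to 9.94 with hairpin 45, against 9.87 to 9.96 with Scr. The part of these markers in the results was not tested.

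Knockdown of ZHX2 was set against Scr to ask what loss of ZHX2 does to the RNA of these cells. GCLM, HMOX1, TXNRD1, NQO1 and SRXN1 rose by between 1.44-fold and 1.61-fold over the mean of both hairpins, on 4 arrays against 2. In RNA from bulk cells, fewer cells of a kind and less RNA per cell cannot be told apart. GCLC, ME1 and KEAP1 were not called, and NFE2L2 was lower without passing. So 5 of 9 genes were higher and 0 lower at a limma adjusted p under 0.05, where 11.9% of all genes were higher, 6.41% lower and 18.3% called in all. The median log2 difference of the 9 genes was 0.53, beside -0.00425 over all genes. As the 9 genes were chosen with earlier results known, these figures, and those for p65 below, cannot test for an excess over all genes. Arrays of the 2 sides did not overlap for 6 genes on the higher side and 1 on the lower, against 21.9% and 16.4% of all genes. All comparisons with Scr share the same 2 Scr arrays.

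**Figure D1:**
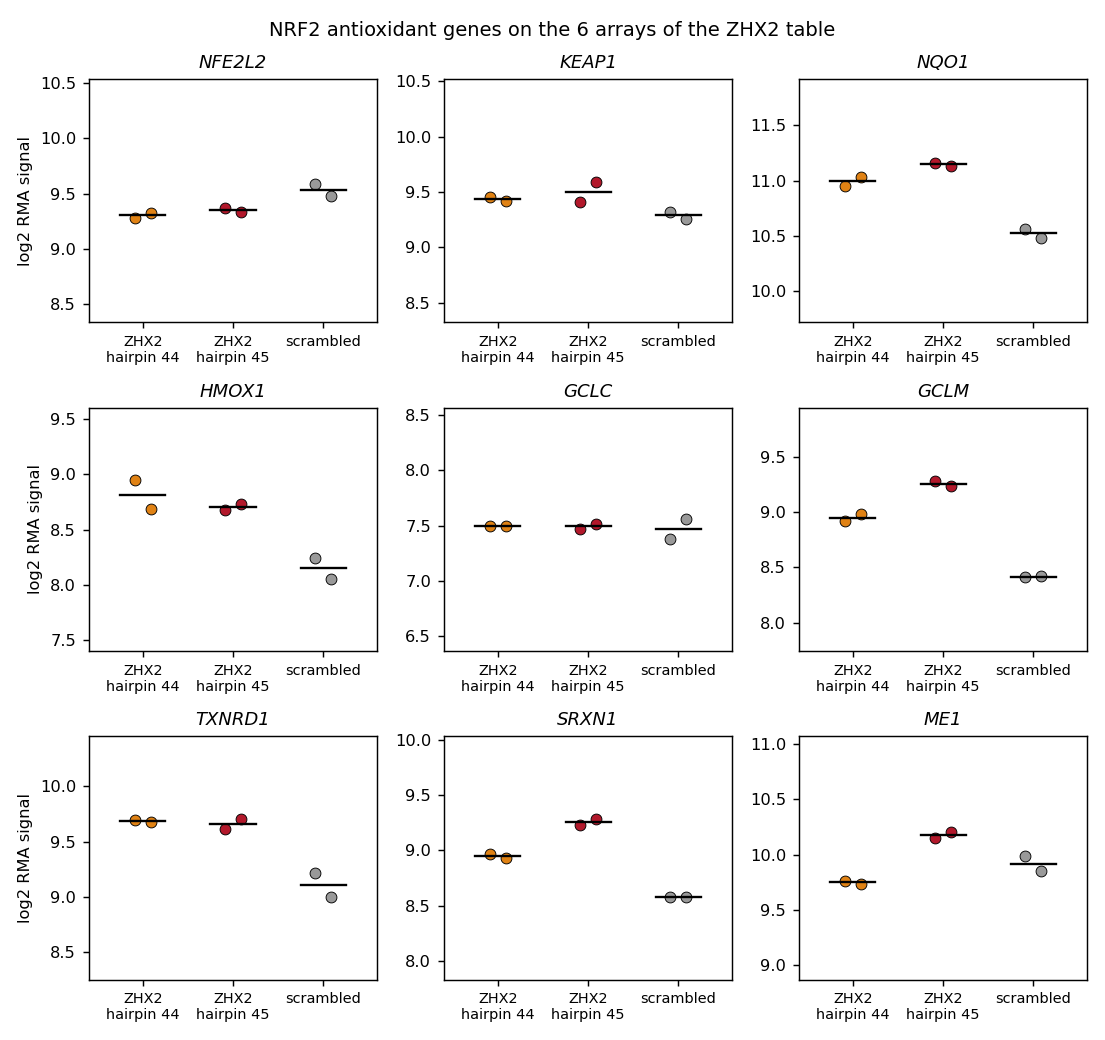
Log2 RMA signal (vertical axis, 2.2 log2 units in every panel) of each gene on the 6 arrays of the ZHX2 table, by group from left to right ZHX2 hairpin 44, ZHX2 hairpin 45 and scrambled. Points are arrays and lines are group means (n = 2). GCLM, NQO1, SRXN1, TXNRD1 and HMOX1 lie above both scrambled arrays with either hairpin, ME1 lies below them with hairpin 44 and above them with hairpin 45, and NFE2L2 lies below them with both.

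Glutathione synthesis starts with glutamate-cysteine ligase, whose modifier subunit is GCLM and whose catalytic subunit is GCLC. GCLM had signals of 8.92 and 8.98 on the hairpin 44 arrays and 9.28 and 9.23 on the hairpin 45 arrays, against 8.41 and 8.42 with Scr. All 4 knockdown arrays lay above both controls, and the hairpin 45 arrays lay above those of hairpin 44. GCLM rose by 0.69 over both hairpins (SE 0.0632, limma adjusted p = 0.00283). GCLC had 7.501 and 7.49 on the hairpin 44 arrays and 7.47 and 7.52 on the hairpin 45 arrays, against 7.38 and 7.56 with Scr. Its knockdown arrays lay between the controls, and the difference was 0.03 (95% interval -0.158 to 0.215, limma adjusted p = 0.839). The same ligase thus had a modifier subunit mRNA that rose and a catalytic subunit mRNA that was not called, and the difference between the 2 genes was not itself tested.

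The thioredoxin arm holds TXNRD1, the cytosolic reductase that passes electrons from NADPH to thioredoxin, and SRXN1, sulfiredoxin, which repairs overoxidised peroxiredoxins. TXNRD1 had 9.69 and 9.68 on the hairpin 44 arrays and 9.61 and 9.71 on the hairpin 45 arrays, against 9.22 and 8.998 with Scr. The hairpins lay within the same range, above both controls. TXNRD1 rose by 0.56 (SE 0.0847, limma adjusted p = 0.00986). SRXN1 had 8.97 and 8.93 on the hairpin 44 arrays and 9.23 and 9.29 on the hairpin 45 arrays, against 8.58 and 8.58 with Scr. The groups did not overlap, and hairpin 45 was higher than hairpin 44. SRXN1 rose by 0.53 (SE 0.0622, limma adjusted p = 0.00516). A second, dimmer SRXN1 probe set differed by 0.13, and with the mean of both probe sets SRXN1 rose by 0.33.

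NQO1 reduces quinones by 2 electrons, and HMOX1, haem oxygenase 1, breaks haem down to biliverdin, iron and carbon monoxide. NQO1 had 10.95 and 11.03 on the hairpin 44 arrays and 11.16 and 11.14 on the hairpin 45 arrays, against 10.57 and 10.48 with Scr. Every knockdown array lay above both controls, and NQO1 rose by 0.55 (SE 0.0668, limma adjusted p = 0.00562). HMOX1 had 8.95 and 8.68 on the hairpin 44 arrays and 8.68 and 8.74 on the hairpin 45 arrays, against 8.24 and 8.06 with Scr. Its arrays did not overlap with the controls, but hairpin 44 held the widest spread between 2 arrays of the 9 genes in this table (SD 0.188). HMOX1 rose by 0.61 (SE 0.102, limma adjusted p = 0.0131), and without Scr replicate 2 the difference was 0.52 and the call was lost (limma adjusted p = 0.0788). The other 4 calls remained with any 1 of the 6 arrays left out.

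ME1, cytosolic malic enzyme, makes NADPH while turning malate into pyruvate. Its signal was 9.76 and 9.74 on the hairpin 44 arrays and 10.15 and 10.20 on the hairpin 45 arrays, against 9.98 and 9.85 with Scr. The hairpin 44 arrays lay below both controls and the hairpin 45 arrays above both, and the mean difference was 0.05 (SE 0.0707, limma adjusted p = 0.706). By hairpin it was -0.17 (SE 0.0816, limma adjusted p = 0.283) and 0.26 (SE 0.0816, limma adjusted p = 0.0784). The mean difference changed sign after quantile normalization (-0.0708) and without Scr replicate 2 (-0.0214).

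Of the regulators, NFE2L2 had 9.28 and 9.32 on the hairpin 44 arrays and 9.37 and 9.34 on the hairpin 45 arrays, against 9.59 and 9.48 with Scr. All knockdown arrays lay below both controls, and the difference was -0.21 (95% interval -0.371 to -0.0417, limma adjusted p = 0.0900). It passed with an intensity trend (0.0126), after quantile normalization (0.0191) and without dim probe sets (0.0448), and it was negative under every alternative run. KEAP1 had 9.46 and 9.42 on the hairpin 44 arrays and 9.41 and 9.59 on the hairpin 45 arrays, against 9.32 and 9.26 with Scr. Its knockdown arrays lay above both controls by a difference of 0.18 (95% interval -0.0105 to 0.37, limma adjusted p = 0.175), which passed only with an intensity trend (0.0470). With that trend 7 of the 9 genes were called, where 26.2% of all genes were.

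Taken one at a time against Scr, each hairpin called the same 5 genes as higher. Hairpin 45 gave 0.84 for GCLM (limma adjusted p = 0.00242), 0.68 for SRXN1 (0.00371), 0.62 for NQO1 (0.00557), 0.55 for HMOX1 (0.0250) and 0.55 for TXNRD1 (0.0145), where 13.0% of all genes were called higher. Hairpin 44 gave 0.67 for HMOX1 (limma adjusted p = 0.0310), 0.58 for TXNRD1 (0.0279), 0.54 for GCLM (0.0166), 0.47 for NQO1 (0.0256) and 0.38 for SRXN1 (0.0371), where 4.81% of all genes were called higher. The hairpin 44 calls were mostly lost when a single array was left out, a setting with fewer residual degrees of freedom. The hairpin 45 arrays enter this contrast only through the shared estimate of the spread. Only TXNRD1 remained called without Scr replicate 1, and 0 genes did without Scr replicate 2 or without any single hairpin 44 or hairpin 45 array, while all 5 differences stayed positive. SRXN1 also lost its hairpin 44 call after quantile normalization and, at 0.25, with the mean of its 2 probe sets (limma adjusted p = 0.112). With an intensity trend 6 of the 9 genes were called for hairpin 44, adding NFE2L2 as lower, where 17.6% of all genes were called. For hairpin 45, HMOX1 was lost without Scr replicate 2, and HMOX1 and TXNRD1 were lost without either hairpin 45 array. With an intensity trend 8 of the 9 genes were called for hairpin 45, adding KEAP1 and ME1 as higher and NFE2L2 as lower, where 27.9% of all genes were called.

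The contrast of hairpin 45 with hairpin 44 tests whether the hairpins differ. It called 0 of 9 genes by limma, where 0.397% of all genes were called. At an unadjusted p under 0.05 there were 3 of 9 genes, beside 3385 of 22432. These 3 were ME1, with a difference of 0.42 (95% interval 0.225 to 0.625, limma adjusted p = 0.120), GCLM with 0.31 (0.127 to 0.485, limma adjusted p = 0.174) and SRXN1 with 0.31 (0.13 to 0.482, limma adjusted p = 0.170). They passed with an intensity trend, at adjusted p of 0.00176 for ME1, 0.0166 for GCLM and 0.0148 for SRXN1, where 4.11% of all genes were called higher. HMOX1 and TXNRD1 differed by -0.11 (95% interval -0.402 to 0.179) and -0.03 (-0.266 to 0.215). NQO1 differed by 0.15 (-0.0371 to 0.342), and ZHX2 itself by -0.39 (-0.6 to -0.177, limma adjusted p = 0.152), lower with hairpin 45.

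**Figure D2:**
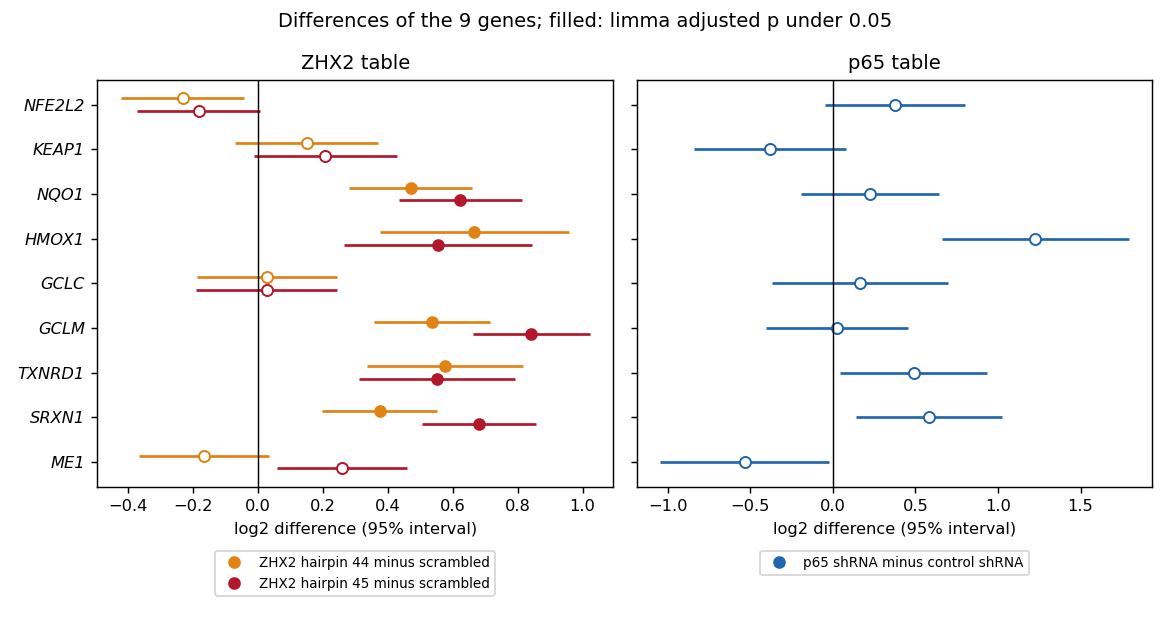
Log2 difference (horizontal axis) of each gene with its 95% interval from limma, for ZHX2 hairpin 44 and hairpin 45 against scrambled (left) and p65 shRNA against control shRNA (right, on a wider scale). Filled points had an adjusted p under 0.05. The same 5 genes are filled for both hairpins, and none is filled for p65, where HMOX1 has the highest difference, 1.23.

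Knockdown of p65 was set against Ctrl to ask which genes depend on this NF-kB subunit. HMOX1 stood furthest from its control, at 2.34-fold higher on 2 arrays against 2. SRXN1, TXNRD1, NFE2L2 and NQO1 were higher and ME1 and KEAP1 lower without overlap between the sides, while GCLM and GCLC overlapped. By limma 0 of 9 genes passed, where 0% of all genes did. Arrays did not overlap for 5 genes on the higher side and 2 on the lower, against 23.4% and 22.7% of all genes. At an unadjusted p under 0.05 there were 4 of the 9 genes, beside 3216 of 22432. The median difference of the 9 genes was 0.23, beside 0.00686 over all genes. The mean signal of the 9 renal carcinoma markers ran from 6.46 to 6.71 with p65 shRNA, against 6.89 to 7.15 with Ctrl, without overlap. Their median difference was -0.46, and EPAS1 (-0.85) and CDH2 (-0.57) were called with an intensity trend (adjusted p = 0.0445 and 0.0184) and not by limma without it. The part of these markers in the results was not tested.

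**Figure D3:**
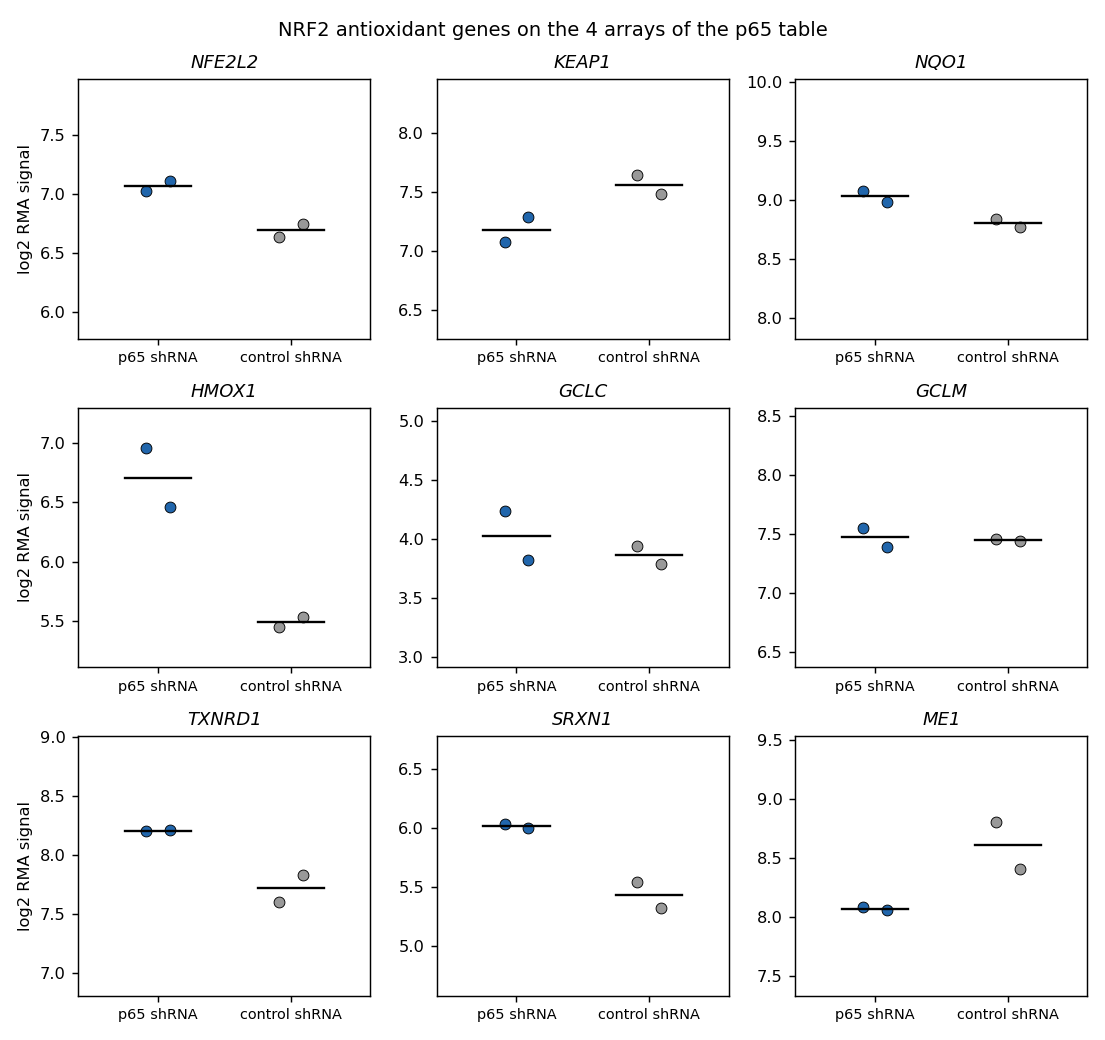
Log2 RMA signal (vertical axis, 2.2 log2 units in every panel) of each gene on the 4 arrays of the p65 table, p65 shRNA left and control shRNA right. Points are arrays and lines are group means (n = 2). HMOX1, SRXN1, TXNRD1, NFE2L2 and NQO1 lie above both control arrays with p65 shRNA, KEAP1 and ME1 below both, and GCLC and GCLM overlap.

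HMOX1 had signals of 6.96 and 6.46 with p65 shRNA, against 5.45 and 5.53 with Ctrl. Both p65 arrays lay well above both controls but also far from each other. The difference was 1.23 (SE 0.225, limma adjusted p = 0.121). With an intensity trend HMOX1 was the only one of the 9 genes called (adjusted p = 0.0152), where 3.86% of all genes were called and 1.37% called higher. Without p65 shRNA replicate 1 that call was lost (difference 0.97, adjusted p = 0.168), and without any other array it remained.

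SRXN1 and TXNRD1, the thioredoxin genes of the 9, stood to the same side as HMOX1. The wider thioredoxin and peroxiredoxin list, described below, had a median difference of 0.04 with p65 shRNA. SRXN1 had 6.03 and 5.99 with p65 shRNA, against 5.54 and 5.32 with Ctrl, a difference of 0.58 (95% interval 0.139 to 1.02, limma adjusted p = 0.248). TXNRD1 had 8.20 and 8.21 with p65 shRNA, against 7.61 and 7.83 with Ctrl, a difference of 0.49 (0.0437 to 0.934, limma adjusted p = 0.313). Neither gene's arrays overlapped on these probe sets. The second, dimmer SRXN1 probe set differed by 0.08. Its arrays overlapped, with 3.10 and 3.08 with p65 shRNA, against 3.19 and 2.82 with Ctrl. NQO1 had 9.08 and 8.99 with p65 shRNA, against 8.84 and 8.78 with Ctrl, a difference of 0.23 (-0.192 to 0.645, limma adjusted p = 0.598).

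The glutamate-cysteine ligase subunits overlapped between groups. GCLM had 7.56 and 7.39 with p65 shRNA, against 7.46 and 7.45 with Ctrl, a difference of 0.02 (95% interval -0.406 to 0.452). GCLC had 4.24 and 3.82 with p65 shRNA, against 3.95 and 3.79 with Ctrl, a difference of 0.16 (-0.371 to 0.695). The intervals reach past 0 on both sides.

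ME1 had 8.08 and 8.06 with p65 shRNA, against 8.80 and 8.41 with Ctrl, a difference of -0.53 (95% interval -1.04 to -0.0248, limma adjusted p = 0.331). Both p65 arrays lay below both controls. NFE2L2 had 7.03 and 7.11 with p65 shRNA, against 6.64 and 6.75 with Ctrl, a difference of 0.37 (-0.0485 to 0.798, limma adjusted p = 0.399). KEAP1 had 7.08 and 7.29 with p65 shRNA, against 7.65 and 7.48 with Ctrl, a difference of -0.38 (-0.841 to 0.077, limma adjusted p = 0.424). The 2 regulators thus lay on opposite sides of their controls in both tables, NFE2L2 below and KEAP1 above with the ZHX2 hairpins and the reverse with p65 shRNA, and none of these values passed limma.

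The wider pathway was read from 7 lists of 117 further genes, of which 102 had a probe set of their own. The lists were also chosen with earlier results of these data known. With both ZHX2 hairpins 19 of the 102 rose and 10 fell (28.4% called, beside 18.3% of all genes), with a median difference of 0.02. Of these 29 calls, 10 remained with any single array left out. The 29 genes kept their direction after median centring and after quantile normalization, and 28 and 23 kept their call.

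Among 25 genes of glutathione synthesis, recycling and conjugation 6 rose and 2 fell, with a list median of 0.00453. SLC7A11, the cystine transporter that feeds glutathione synthesis and is also an ATF4 target, rose by 1.17 (SE 0.0638, limma adjusted p = 0.000974). It had 10.81 and 10.79 on the hairpin 44 arrays and 11.08 and 11.02 on the hairpin 45 arrays, against 9.79 and 9.73 with Scr. Its partner chain SLC3A2 rose by 0.69 and the glutathione peroxidase family member GPX8 by 0.58. GPX8 differed by 0.23 with hairpin 44 (limma adjusted p = 0.148) and by 0.93 with hairpin 45 (0.00238), and the hairpins differed by 0.70 (0.0396). CHAC1 rose by 1.02 (SE 0.0711, limma adjusted p = 0.00178), and its product degrades glutathione. ABCC3, an exporter of conjugates, changed by -0.79 and glutathione reductase GSR by -0.32, and the GSR call was lost when any single array was left out (limma adjusted p from 0.0516 to 0.117) and after median centring.

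Among 14 genes of the thioredoxin and peroxiredoxin system 4 rose and 2 fell, with a median of 0.17. The genes with the smallest p were TXNIP, an inhibitor of thioredoxin, at -0.75 (SE 0.116, limma adjusted p = 0.0104) and SESN2, a stress-induced sestrin, at -0.43 (SE 0.0811, limma adjusted p = 0.0186). The SESN2 call was lost without Scr replicate 1, hairpin 44 replicate 2 or either hairpin 45 array (limma adjusted p up to 0.0646). TXN, thioredoxin itself, rose by 0.47 (SE 0.0926, limma adjusted p = 0.0206), a call lost without Scr replicate 2, hairpin 44 replicate 2 or either hairpin 45 array (up to 0.0831).

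Of 16 NADPH supply genes 4 rose and 1 fell, with a median of 0.06. The mitochondrial folate enzyme MTHFD2 rose by 0.86 (SE 0.0624, limma adjusted p = 0.00186) and the pentose phosphate enzyme RPIA by 0.60 (SE 0.0714, limma adjusted p = 0.00535), while mitochondrial isocitrate dehydrogenase IDH2 changed by -0.45 (SE 0.0604). These 3 calls remained with any single array left out. Of 17 quinone, carbonyl and xenobiotic enzymes 0 rose and 3 fell, with a median of -0.04. CYP1B1, a cytochrome P450, changed by -1.19 (SE 0.0646, limma adjusted p = 0.000974), with 8.55 and 8.57 on the hairpin 44 arrays and 7.51 and 7.59 on the hairpin 45 arrays, against 9.27 and 9.21 with Scr. AKR1C3, an aldo-keto reductase with close paralogues that could share its probes, changed by -0.60 (SE 0.125, limma adjusted p = 0.0245). It lost its call without either Scr array or hairpin 44 replicate 1. Its signal was low, at 5.42 and 5.68 on the hairpin 44 arrays and 5.53 and 5.18 on the hairpin 45 arrays, against 6.04 and 6.07 with Scr. All of these lay below the array medians of 6.15 to 6.22.

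Of 9 haem and iron genes 3 rose and 0 fell, with a median of 0.06. The transferrin receptor TFRC rose by 0.44 (SE 0.0727, limma adjusted p = 0.0127) and lost its call without Scr replicate 2 (0.0651). FLVCR1, described as a haem exporter, rose by 0.42 (SE 0.0977, limma adjusted p = 0.0337). It kept its call only when Scr replicate 1 was the array left out. Of 13 NRF2 partners and regulators 1 rose and 2 fell, with a median of 0.04. The related factor NFE2L3 rose by 0.48 (SE 0.0718, limma adjusted p = 0.00952), a call lost without Scr replicate 2 (0.05004), and the cell cycle inhibitor CDKN1A changed by -0.34 (SE 0.0674, limma adjusted p = 0.0221), a call kept only when Scr replicate 1 was the array left out. CDKN1A differed by -0.08 with hairpin 44 (limma adjusted p = 0.615) and by -0.59 with hairpin 45 (0.00646), a difference between hairpins of -0.52 that did not pass (0.0832). Of 8 superoxide and hydrogen peroxide enzymes SOD1 alone rose, by 0.34 (SE 0.0806, limma adjusted p = 0.0366), and lost its call when any single array was left out and after quantile normalization. The oxidase subunit CYBA differed by -0.19 (SE 0.067, limma adjusted p = 0.113).

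Taken by hairpin, the list genes named above and called over both hairpins were all called with hairpin 45 except GSR (limma adjusted p = 0.0593). With hairpin 44, CDKN1A, GPX8, GSR, SESN2, TXN, AKR1C3, FLVCR1 and SOD1 were not called. The hairpins differed beyond the threshold for GPX8, for ABCC3 by -0.67 (limma adjusted p = 0.0351) and for CYP1B1 by -1.01 (0.0191). Over all genes, 0 to 4 calls between the hairpins were left with 1 array omitted.

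With p65 shRNA 0 of the 102 list genes passed limma. With an intensity trend 4 were higher and 6 lower (9.80%, beside 3.86% of all genes), none of which passed limma without it. Single-array omissions under the trend are not given for the list genes. SLC48A1, a haem transporter, had 6.04 and 5.86 with p65 shRNA, against 4.45 and 4.09 with Ctrl. Its difference was 1.68 (SE 0.204, limma adjusted p = 0.0743, and 0.00581 with the trend), beside the 1.23 of HMOX1. FLVCR1 differed by 0.999 (0.0109 with the trend) and biliverdin reductase BLVRB by -1.04 (0.0290 with the trend). The haem and iron list thus held values on both sides, with a median of -0.14. PRDX3, a mitochondrial peroxiredoxin, had 8.68 and 8.86 with p65 shRNA, against 9.88 and 9.74 with Ctrl, a difference of -1.04 (limma adjusted p = 0.112, and 0.00364 with the trend). NFE2L3 differed by -0.999, SOD1 by -0.74 and MTHFD1 by -0.69, with adjusted p of 0.0186, 0.0100 and 0.0276 with the trend. BRCA1 differed by -0.95, CDKN1A by 0.86 and UGDH by 0.49, with adjusted p of 0.0366, 0.0286 and 0.0305 with the trend. GSTM4 differed by -0.73 and OSGIN1 by -0.89, and neither passed with or without it.

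**Figure D4:**
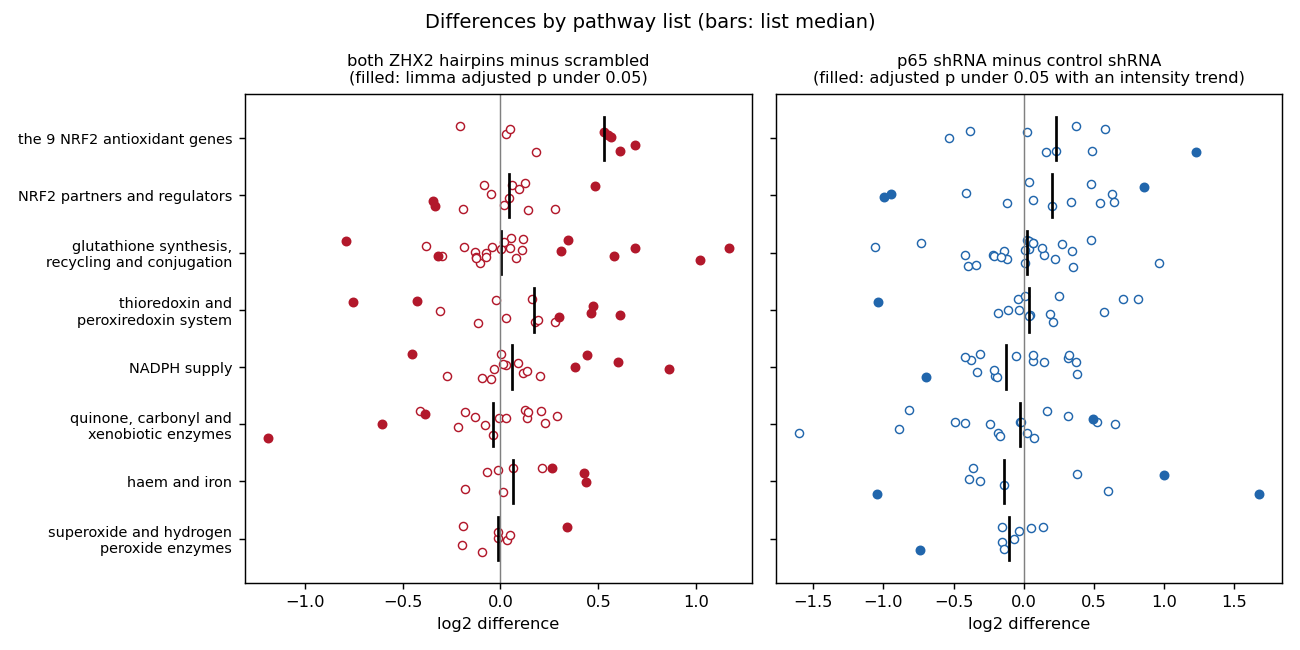
Log2 difference (horizontal axis) of the 9 genes and of each pathway list (rows), for both ZHX2 hairpins against scrambled (left) and p65 shRNA against control shRNA (right). Points are genes and black bars list medians. Filled points had an adjusted p under 0.05 by limma on the left and with an intensity trend on the right. The 9 genes have a median of 0.53 on the left, and the other 7 lists have medians between -0.04 and 0.17.

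Likeness of pattern was measured over the 6 arrays of the ZHX2 table, as the root mean square distance between genes of log2 signal minus the Scr mean. The 3 genes nearest to GCLM were DOLPP1 at 0.0207, GPATCH4 at 0.0233 and SRPRB at 0.0359, and the nearest of the 9 genes was NQO1 at 0.135. The 3 nearest to HMOX1 were CYCS at 0.0365, CHAF1A at 0.0536 and CHST3 at 0.0613, and the nearest of the 9 was TXNRD1 at 0.0897. The 9 genes are few among all those searched, so the order says nothing about them.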

How the data were processed

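RNA from 10 arrays was deposited as 2 tables of log2 signals, which the authors made with RMA (background correction, normalization and summary per probe set) per the submitters' processing notes. The sources used here do not give a version or an annotation. Of 53617 probe sets, 24480 were named with 1 gene by joining both platform annotations, with symbols updated through RefSeq (GRCh38.p14), giving 22432 genes. The brightest probe set of a gene was used. Linear models of group means were fitted per table in R 4.3.3 with limma 3.58.1, without an intensity trend, on 3 and 2 residual degrees of freedom. Calls took a Benjamini-Hochberg adjusted p under 0.05 over all genes, every adjusted p is from limma, and the fit was tested on simulated data. Array number limits the precision. The 9 genes and the lists were chosen with earlier results of these data known. Genes outside the 9 were named by smallest p in each list (2 for ZHX2, 1 for p65), by nearest pattern, or because they were called. Each choice was changed in turn: moderation with an intensity trend or made robust, arrays centred on their medians or quantile normalized, probe sets below the 40th percentile of signal dropped, probe sets of a gene averaged, a replicate block added, the fit restricted to the pair of groups, and single arrays omitted. The trend with single p65 arrays omitted was chosen after seeing the data.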

Additional observations from a re-analysis of the deposited data

Results flagged for a closer look

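ME1 lay on opposite sides of the scrambled arrays with the 2 ZHX2 hairpins. Neither difference passed, at -0.17 with hairpin 44 (limma adjusted p = 0.283) and 0.26 with hairpin 45 (limma adjusted p = 0.0784). Both hairpin 45 arrays lay above both scrambled arrays and both hairpin 44 arrays lay below them. The difference of hairpin 45 from hairpin 44 was 0.42 in log2 units (SE 0.0816, limma adjusted p = 0.120). It passed with an intensity trend (adjusted p = 0.00176) and without dim probe sets. With 1 array left out it ran from 0.40 to 0.45 and did not pass. No other gene of the 9 had its hairpins on opposite sides of the scrambled arrays. The share of all genes with this pattern was not counted, so ME1 cannot be set against it. With 2 arrays in every group, no test for a single outlying array could be made.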

How the results depend on the processing

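GCLM, NQO1, SRXN1 and TXNRD1 kept their rise and their call over both hairpins in all 13 alternatives run, and the count of called genes stayed between 4 and 7. SRXN1 lost its hairpin 44 call with the mean of its 2 probe sets and after quantile normalization. For hairpin 44 the count was 5, and 6 with an intensity trend. It was 2 with a replicate block, 0 when only the 2 groups compared were fitted and 0 to 1 with 1 array left out, settings that leave fewer residual degrees of freedom. For hairpin 45 it was 5, 8 with an intensity trend and 3 to 5 with 1 array left out. NFE2L2 was also called lower for hairpin 45 in a further alternative, not a single-array omission (limma adjusted p = 0.0281). For hairpin 44, too, NFE2L2 was called lower in an alternative other than the trend and the single-array omissions. Between the hairpins the count was 0, 3 with an intensity trend and 1 (ME1) without dim probe sets. For p65 it was 0, 1 with an intensity trend, and 0 to 3 with that trend and 1 array left out. The cause was not tested. Differences near 0 changed sign. ME1 over both hairpins gave -0.0708 after quantile normalization, and -0.0214 to 0.115 with single arrays omitted. GCLC over both hairpins ran from -0.0626 to 0.119, with hairpin 44 from -0.0615 to 0.12 and with hairpin 45 from -0.0638 to 0.118 in such omissions. Between hairpins GCLC gave 0.0194 once arrays were centred on their medians. Omitting single arrays, the difference between hairpins ran from -0.0232 to 0.0185 for GCLC, -0.0335 to 0.148 for KEAP1, -0.245 to 0.0214 for HMOX1 and -0.0739 to 0.023 for TXNRD1, and that with p65 shRNA from -0.0474 to 0.371 for GCLC, -0.05995 to 0.106 for GCLM and -0.186 to 0.0101 for ZHX2, with or without a trend. None of these values passed. Same-numbered arrays did not deviate together (correlations from -0.0263 to 0.0542), so the numbers were not taken as pairs. The replicate block changed no other count of called genes among the 9. Over all genes the hairpin 44 comparison called 1716, and 3 to 595 with 1 array left out, 820 with the block, 575 with its 2 groups alone, 3940 with a trend and 3062 without dim probe sets. That of both hairpins called 4102, and 1788 to 3340 with 1 array left out. Hairpin 45 called 4513, and 1134 to 3974. The hairpins differed in 89, and in 0 to 4 with 1 array left out, 11 with the block, 3 alone, 1466 with a trend and 403 without dim probe sets. The p65 comparison called 0, and 866 with a trend, or 11 to 1046 with a trend and 1 array omitted.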
